A study of Sus scrofa with 6 samples.

Results

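The Z-disc and stretch-responsive proteins examined here are 10 genes chosen by name: ANKRD1, ANKRD2, CSRP3, XIRP1, XIRP2, FHL1, FHL2, NEXN, MYOZ2 and LDB3. Of these, 9 were found under their own name among the 13288 genes of the expression table, and XIRP1 was not. The samples were ventricular tissue of 6 male Tibetan minipigs. Of these, 3 had sham surgery, a thoracotomy without constriction, and 3 had descending aortic constriction (DAC), in which sutures around the descending aorta raised the pressure load on the left ventricle. Tissue was taken at week 12 after surgery, and each library came from 1 minipig, called sham replicate 1, 2 or 3 and DAC replicate 4, 5 or 6. The surgery was the single difference between the groups that the labels give, and the labels do not say which ventricle or which part of its wall was sampled.

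The Z-disc is the plate that bounds each sarcomere, where alpha-actinin anchors the thin filaments and titin. It carries contractile force along the myofibril, and many of its proteins also bind signaling molecules or move to the nucleus when a cardiomyocyte is stretched. ANKRD1, CSRP3 and FHL1 are widely used as transcripts that respond to load in hearts of small animals. The comparison of DAC with sham minipigs therefore asks whether the transcripts of this machinery had a different level in ventricles under long pressure load.

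None of the 9 measured genes differed between DAC and sham ventricles beyond the spread between minipigs. The largest differences were a higher mean of NEXN, by 1.22-fold, and a lower mean of LDB3, to 0.849 of the sham level, and in both genes the 95% interval included no change. For ANKRD1, CSRP3, FHL1, FHL2, NEXN, MYOZ2 and LDB3, the interval excluded a 2-fold change in either direction. For ANKRD2, near 1 FPKM, the interval applies to FPKM + 1 and did not exclude a 2-fold lower FPKM. For XIRP2 the interval reached 2.24-fold, and its level in the sham group varied 3.29-fold between minipigs. In the same libraries NPPB and RCAN1, transcripts known to follow wall stress and calcineurin activity, were higher in every DAC minipig than in any sham minipig. The DAC group lay wholly above the sham group in 6.01% of all genes tested. The adjusted P from limma was 0.482 for NPPB and 0.488 for RCAN1. In MYH7, ACTA1 and MYOCD, the other hypertrophy genes tested, the groups overlapped.

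The values are FPKM, fragments per kilobase of transcript, scaled to the mapped fragments of each library, so levels can be compared between genes. Differences are given as log2 fold changes, the DAC mean minus the sham mean of log2(FPKM + 1), with limma's moderated standard error. For genes of low FPKM this scale makes a change look smaller than it is. A gene is called here at an unadjusted P under 0.05, the threshold of the study for a differentially expressed gene. Of the 11029 genes tested, 8.51% were called, 3.25% higher and 5.27% lower in the DAC group, and none had an adjusted P under 0.05 (smallest 0.106, limma with Benjamini-Hochberg adjustment). Of the 9 measured genes, 0 were called by limma at the unadjusted threshold and 0 after adjustment. In all 9 genes the DAC and sham values overlapped. Among all genes tested, the groups did not overlap in 14.9%, with the DAC group above in 6.01% and below in 8.91%. The DAC mean on the log2 scale was higher in 4 and lower in 5 of the 9 genes, against 46.6% higher among all genes. The median log2 fold change was -0.066 over the 9 genes and -0.016 over all genes tested.

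**Figure D1:**
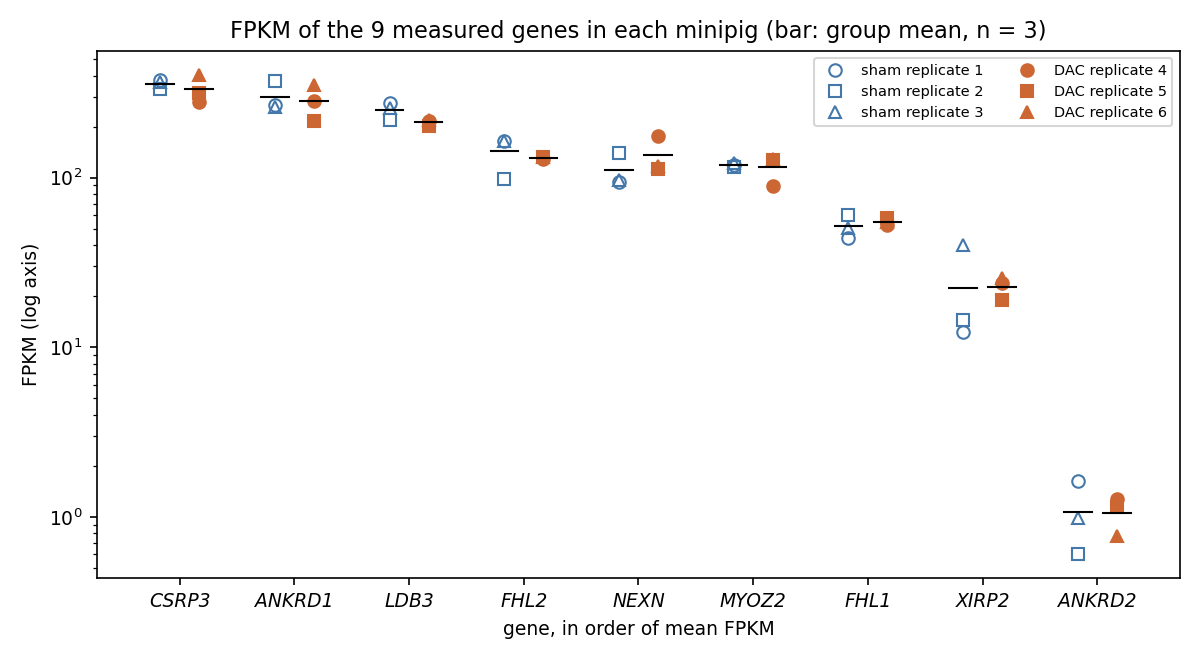
FPKM on a log axis for the 9 measured genes in each minipig, with open blue symbols for sham, filled orange symbols for DAC and a bar for each group mean (n = 3). The symbols of both groups overlap in every gene, and the sham values of XIRP2 lie farthest apart.

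The genes spanned a wide range of levels. CSRP3 had the highest mean over the 6 minipigs (347 FPKM), followed by ANKRD1 (292), LDB3 (231), FHL2 (137), NEXN (123), MYOZ2 (117), FHL1 (53.4), XIRP2 (22.5) and ANKRD2 (1.06). CSRP3 was number 72 and ANKRD1 number 87 among the genes tested when ordered by mean FPKM. Some neighbors in this order could not be separated. CSRP3 was above ANKRD1 in 4 of 6 minipigs, FHL2 was above NEXN in 4 of 6, and NEXN was above MYOZ2 in 2 of 6. By contrast, the ranges of LDB3 and FHL2, of MYOZ2 and FHL1, of FHL1 and XIRP2, and of XIRP2 and ANKRD2 did not overlap.

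ANKRD1 and ANKRD2 encode muscle ankyrin repeat proteins, which bind titin at the I-band and can also enter the nucleus. ANKRD1 is the cardiac form and ANKRD2 is mainly known from slow skeletal muscle. ANKRD1 (ENSSSCG00000010461, on the susScr11 build at chromosome 14 from 102603777 to 102612839, minus strand) was at 267, 370.0 and 262 FPKM in the sham minipigs and at 284, 215 and 354 FPKM in the DAC minipigs. The highest value belonged to sham replicate 2 and the lowest to DAC replicate 5, with DAC replicate 6 close to the sham maximum. The group levels were 299.7 ± 60.9 FPKM in sham and 285 ± 69.6 FPKM in DAC minipigs (mean ± SD, n = 3 each). DAC minus sham was -0.086 on the log2 scale (standard error 0.22, 95% interval -0.59 to 0.42, adjusted P = 0.929 from limma). The sign of the ANKRD1 difference turned with quantile normalization (0.033), without sham replicate 2 (0.075) and without DAC replicate 5 (0.10).

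ANKRD2 (ENSSSCG00000010522, chromosome 14 from 108944534 to 108959382, plus strand) was near the lowest level that was tested. Its values were 1.62, 0.605 and 0.979 FPKM in the sham group and 1.27, 1.14 and 0.774 FPKM in the DAC group. Sham replicates 1 and 2 held the highest and the lowest value, so the DAC group lay inside the sham range. The difference was 0.016 on the log2 scale (95% interval -0.46 to 0.49, standard error 0.20, adjusted P = 0.987 from limma). HOGA1, which is on the same strand and shares 249 bases with the ANKRD2 position, was at 2.51 to 4.51 FPKM. C10orf62, also on this strand, shares 507 bases with it and was at 0.519 to 1.09 FPKM, close to ANKRD2 itself. Reads in the shared stretches could be a part of the ANKRD2 level. Within a minipig, ANKRD1 exceeded ANKRD2 by between 165-fold and 612-fold. The third gene of this protein family, ANKRD23, was not analysed here.

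CSRP3, FHL1, FHL2 and LDB3 encode proteins with LIM domains, zinc-binding modules that join protein partners. CSRP3, muscle LIM protein, sits at the Z-disc and has long been studied as a possible stretch sensor. CSRP3 (ENSSSCG00000013354, chromosome 2 from 40215353 to 40240618, plus strand) was at 376, 335 and 366 FPKM in the sham minipigs and at 279.6, 318 and 405 FPKM in the DAC minipigs. The sham values were close together, while DAC replicate 4 was the lowest and DAC replicate 6 the highest of all 6. For CSRP3 the log2 fold change was -0.12 (standard error 0.15, 95% interval -0.48 to 0.24, adjusted P = 0.842 from limma). Relative to TCAP, the titin cap protein that binds muscle LIM protein, CSRP3 was at 0.274 ± 0.0158 (SD, n = 3) of the TCAP level in the sham group and at 0.265 ± 0.0251 (SD, n = 3) in the DAC group.

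FHL1 and FHL2 are LIM-only proteins that bind titin in the I-band. FHL1 (ENSSSCG00000012699, chromosome X from 111310684 to 111367904, plus strand) was at 44.2, 60.3 and 50.6 FPKM in the sham group and at 52.4, 58.0 and 54.8 FPKM in the DAC group. Every DAC value of FHL1 was above the sham mean, yet sham replicate 2 was above them all. This gave a log2 fold change of 0.099 (standard error 0.13, 95% interval -0.22 to 0.41, adjusted P = 0.854 from limma), and it was -0.0073 without sham replicate 1. FHL2 (ENSSSCG00000008147, chromosome 3 from 49363555 to 49467527, plus strand) was at 166, 97.9 and 165 FPKM in the sham group and at 129, 133 and 132 FPKM in the DAC group.

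The 3 DAC values of FHL2 agreed within 1.03-fold and lay below sham replicates 1 and 3 but above sham replicate 2. For FHL2 the log2 fold change was -0.081 (standard error 0.21, 95% interval -0.57 to 0.41, adjusted P = 0.929 from limma). FHL2 was called lower only without sham replicate 2, at a log2 fold change of -0.33 with an unadjusted P of 0.0232 and an adjusted P of 0.492 from limma. Its sign turned without sham replicate 1 (0.045), without sham replicate 3 (0.043) and with quantile normalization (0.014). The ratio of FHL2 to FHL1 within a minipig was 3.75, 1.62 and 3.26 in the sham group and 2.47, 2.29 and 2.40 in the DAC group. All DAC ratios lay between sham replicate 2 and the other sham minipigs, and sham replicate 2 combined the highest FHL1 with the lowest FHL2.

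LDB3, also called Cypher or ZASP, has a PDZ domain that binds alpha-actinin and LIM domains that bind protein kinase C. LDB3 (ENSSSCG00000010359, chromosome 14 from 87644242 to 87722251, plus strand) was at 274, 219.8 and 259 FPKM in the sham minipigs and at 215, 201 and 220.0 FPKM in the DAC minipigs. The groups overlapped by a small margin, since sham replicate 2 was just below DAC replicate 6. The group means were 251 ± 27.8 FPKM in sham and 212 ± 10.1 FPKM in DAC minipigs (mean ± SD, n = 3 each). LDB3 had the smallest P of the 9 genes, with a log2 fold change of -0.24 (standard error 0.12, 95% interval -0.51 to 0.039, unadjusted P = 0.0827 and adjusted P = 0.615 from limma). Its sign was the same under every alternative tried, between -0.33 and -0.17, and it was called in 1 of these, without sham replicate 2 (unadjusted P = 0.0320, adjusted P = 0.509).

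After median scaling, or with each sample centred on its cardiomyocyte markers, the DAC values of LDB3 were all below the sham values, with log2 fold changes of -0.21 and -0.19 that were not called. ACTN2, the cardiac alpha-actinin to which LDB3 binds, was at 266 ± 8.31 FPKM in sham and 243 ± 12.5 FPKM in DAC minipigs (mean ± SD, n = 3 each). Relative to ACTN2 in the same minipig, LDB3 was at 1.01, 0.859 and 0.958 in the sham group and at 0.936, 0.787 and 0.907 in the DAC group, so the ratios of both groups overlapped.

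XIRP1 and XIRP2 encode the Xin repeat proteins, which bind actin at the intercalated disc and in developing or damaged myofibrils. XIRP2 (ENSSSCG00000015917, chromosome 15 from 73433932 to 73741041, plus strand) was at 12.2, 14.5 and 40.2 FPKM in the sham minipigs and at 23.8, 19.0 and 25.5 FPKM in the DAC minipigs. Sham replicate 3 was the highest of all 6 minipigs, while the other sham minipigs were the lowest. The group means were nearly equal at 22.3 ± 15.6 FPKM in sham and 22.8 ± 3.38 FPKM in DAC minipigs (mean ± SD, n = 3 each). On the log2 scale XIRP2 differed by 0.21 (standard error 0.40, 95% interval -0.74 to 1.17, adjusted P = 0.898 from limma).

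The XIRP2 comparison rested on sham replicate 3. Without it, XIRP2 was called higher in the DAC group, at a log2 fold change of 0.72 with an unadjusted P of 0.00483 and an adjusted P of 0.774 from limma. Without sham replicate 1 the log2 fold change was -0.099. XIRP1, which RefSeq places on chromosome 13 from 23867476 to 23876850 of Sscrofa11.1, was not analysed here. At that place the table lists 1 unnamed long non-coding gene (chromosome 13 from 23867479 to 23868754, 0.236 to 0.614 FPKM), which was not read as XIRP1.

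NEXN and MYOZ2 encode partners of actin and alpha-actinin. Nexilin, the product of NEXN, binds filamentous actin and helps to hold the Z-disc and the junctional membranes of cardiomyocytes together. NEXN (ENSSSCG00000003768, chromosome 6 from 135318754 to 135382699, minus strand) was at 94.3, 139 and 97.5 FPKM in the sham minipigs and at 176, 113 and 117 FPKM in the DAC minipigs. All DAC values were above the sham mean of 110.3 ± 25.0 FPKM (SD, n = 3), but sham replicate 2 was above DAC replicates 5 and 6. For NEXN the log2 fold change was 0.29 (standard error 0.22, 95% interval -0.23 to 0.81, adjusted P = 0.725 from limma). It was 0.084 without DAC replicate 4, which held the highest value, and 0.47 without sham replicate 2. Relative to ACTN2, NEXN was at 0.418 ± 0.109 (SD, n = 3) in the sham group and 0.564 ± 0.176 (SD, n = 3) in the DAC group. These ratios overlapped, since sham replicate 2 (0.543) was above DAC replicates 5 (0.442) and 6 (0.484). ACTN2 itself was lower in every DAC minipig than in any sham minipig.

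MYOZ2 encodes calsarcin-1, which ties the phosphatase calcineurin to alpha-actinin and LDB3. MYOZ2 (ENSSSCG00000032838, chromosome 8 from 104574430 to 104609328, minus strand) was at 118, 116 and 122 FPKM in the sham group and at 89.0, 128 and 128 FPKM in the DAC group. The sham values agreed within 1.06-fold, and the DAC values lay on both sides of them, with DAC replicate 4 alone below. For MYOZ2 the difference was -0.066 on the log2 scale (standard error 0.16, 95% interval -0.44 to 0.30, adjusted P = 0.923 from limma). Its sign turned without DAC replicate 4 (0.11) and with quantile normalization (0.034).

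**Figure D2:**
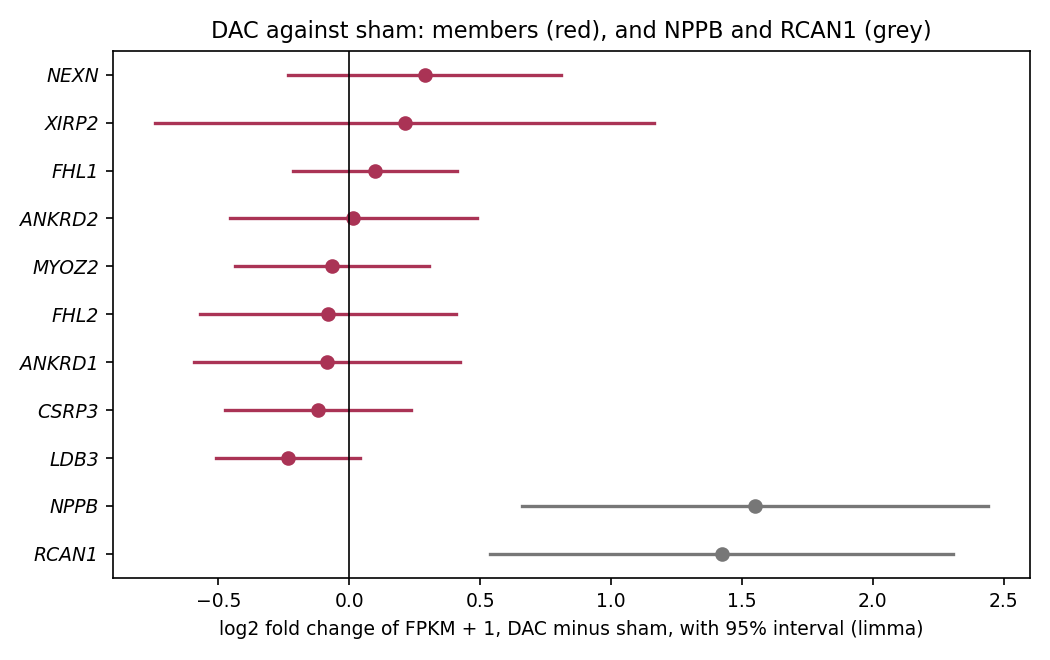
Log2 fold change of FPKM + 1, DAC minus sham, with its 95% interval from limma, for the 9 measured genes (red) and for NPPB and RCAN1 (grey). Every red interval crosses 0, from LDB3 at -0.24 to NEXN at 0.29, while both grey intervals lie above 0. The grey genes are the 2 that were called among 5 hypertrophy genes tested.

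The measured genes differed in how much they varied between minipigs of one group. XIRP2 had a residual SD of 0.65 on the log2 scale, as large as or larger than that of 97.9% of the 3686 genes with a mean of at least 10 FPKM. NEXN (0.33), ANKRD1 (0.32) and FHL2 (0.31) were at the percentiles 85.9, 85.0 and 83.2 of these genes. LDB3 (0.13) and FHL1 (0.16) were below the median residual SD of 0.17. The interval of a fold change was therefore narrowest for LDB3 and widest for XIRP2. Sham replicates 1 and 2 held opposite ends of the sham range in 6 of 9 genes. In the remaining 3 of 9 genes sham replicate 3 held an end, which it did in 64.2% of all genes tested. In sham replicate 2, ANKRD1, FHL1 and NEXN were the highest of the sham group, and ANKRD2, CSRP3, FHL2, MYOZ2 and LDB3 were the lowest. Sham replicate 2 thus stood at an end of the sham range in 8 of 9 genes, against 69.0% of all genes tested. Without this minipig, FHL1 and NEXN lay above, and FHL2 and LDB3 below, all remaining sham values, and in 28.8% of all genes the groups then did not overlap.

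**Figure D3:**
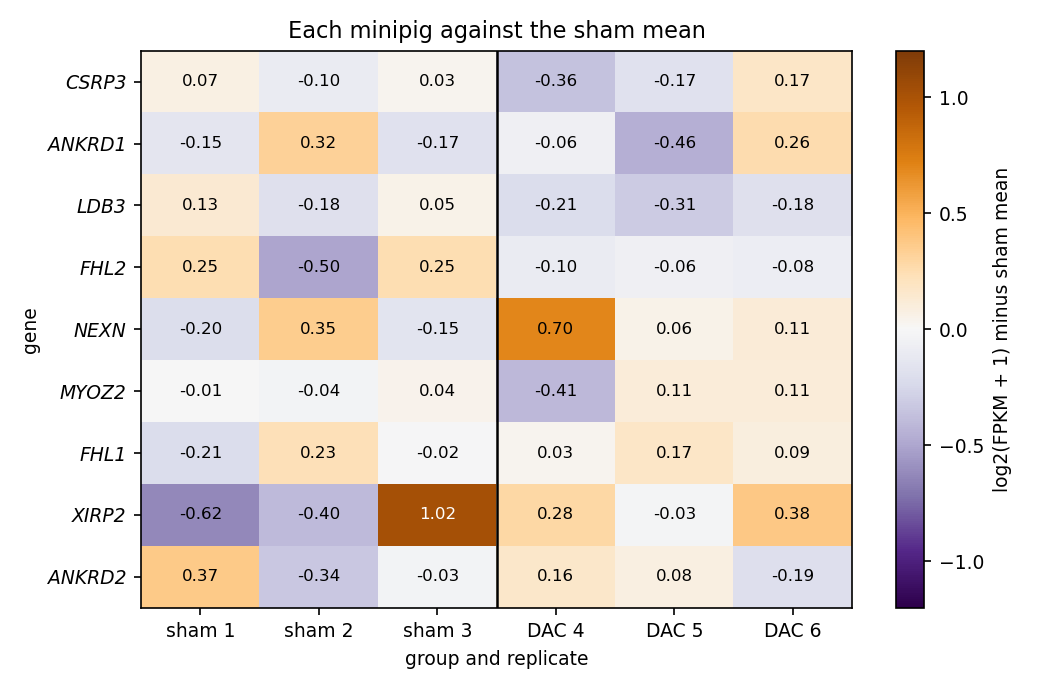
Difference of log2(FPKM + 1) from the sham mean for each minipig (columns) and gene (rows), with orange for higher and purple for lower values. All DAC columns are above the sham mean in FHL1 and NEXN and below it in FHL2 and LDB3, and the largest single value is XIRP2 in sham replicate 3 at 1.02.

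The summed level of the 9 genes was between 1353 and 1364 FPKM in the sham group and between 1185 and 1437 FPKM in the DAC group, and DAC replicates 5 and 6 held the lowest and the highest sum. Mitochondrially encoded genes held between 24.0% and 25.3% of all FPKM in sham minipigs, 32.8% in DAC replicate 5 and 27.1% to 27.2% in the remaining DAC minipigs. With these genes left out and the rest rescaled, 0 of the 9 genes were called. All 9 genes are known from striated muscle cells, and their expression in other cells of the tissue was not tested. In bulk tissue a different share of cardiomyocytes and a different RNA level in each cardiomyocyte cannot be told apart.

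**Figure D4:**
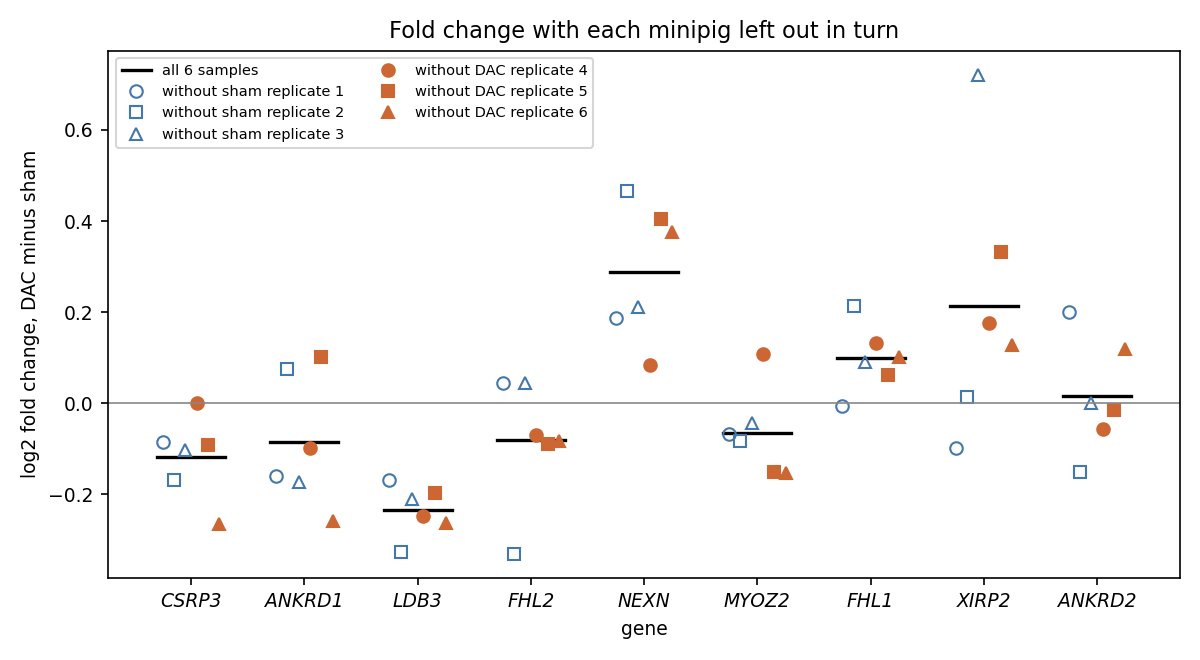
Log2 fold change of each gene in all 6 samples (black line) and with 1 minipig left out in turn (symbols). NEXN stays above 0 and LDB3 and CSRP3 stay below 0 in all of these (CSRP3 only just, at -0.00015 in one), while XIRP2 runs from -0.099 to 0.72.

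Other genes of the Z-disc were read in the same way. Of 30 further Z-disc genes listed by name, 29 were in the table and 27 were tested. Of these, 0 were called higher and 1 was called lower in the DAC group (limma, unadjusted P under 0.05), against 3.25% and 5.27% of all genes tested. Their median log2 fold change was 0.011, with 15 higher and 12 lower means. The most abundant were TCAP, DES (desmin, the intermediate filament around the Z-disc), CRYAB (the chaperone of desmin), FLNC (filamin C) and ACTN2. Their log2 fold changes were -0.070 for TCAP, 0.20 for DES, 0.0079 for CRYAB, 0.043 for FLNC and -0.13 for ACTN2.

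In 4 of the 27 genes the groups did not overlap, against 14.9% of all genes. Among these were ACTN2, lower, and CAPZA1 and TRIM54, higher in the DAC group. TRIM54 and CAPZA1, an actin capping protein subunit, were named after their values were seen. CAPZA1 was at 7.39 ± 0.513 FPKM in sham and 8.89 ± 0.606 FPKM in DAC minipigs (mean ± SD, n = 3 each). It was not called in the 6 samples (unadjusted P = 0.0580, adjusted P = 0.593 from limma) but was called in 6 of the alternatives.

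**Figure D5:**
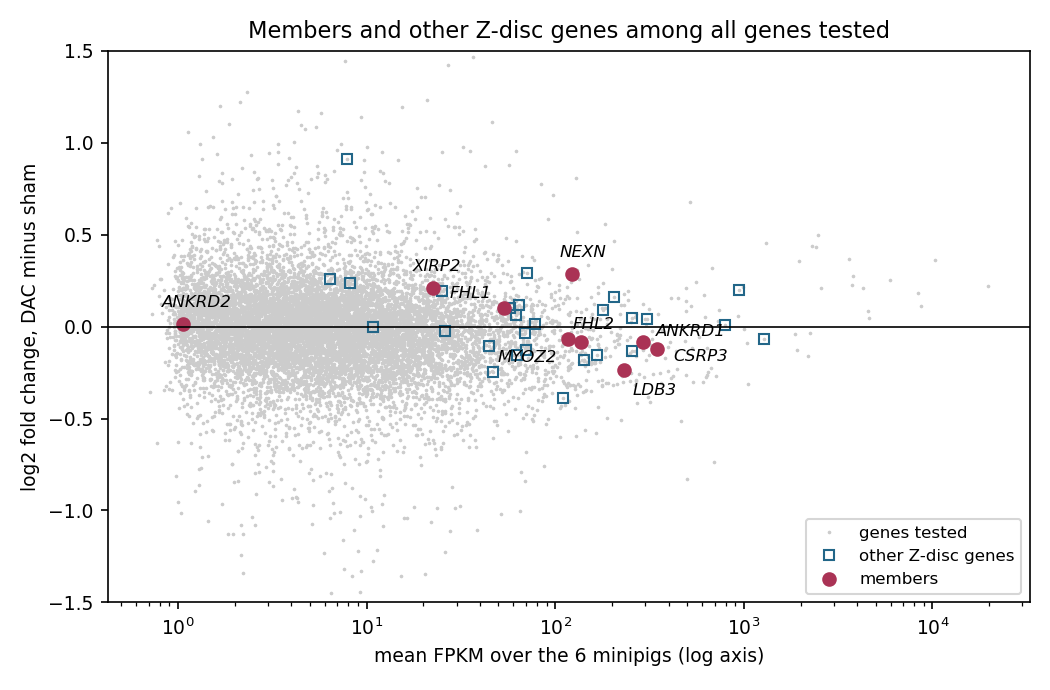
Log2 fold change, DAC minus sham, against mean FPKM over the 6 minipigs on a log axis, for all genes tested (grey), other Z-disc genes (blue squares) and the 9 measured genes (red). The red points lie between -0.24 and 0.29, and 17 grey genes lie outside the axis limits of 1.5.

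Relatives of the 9 genes from the same protein families were also examined. Of 11 listed, 8 were tested. Against 5.27% of all genes tested, 1 of these was called lower. This was FHL5, at 2.11, 1.40 and 1.29 FPKM in the sham group and 0.529, 1.45 and 0.220 FPKM in the DAC group. Its log2 fold change was -0.63 (adjusted P = 0.585 from limma). The groups of FHL5 overlapped, and it was not called in 11 of the alternatives. FHL3, CSRP1, CSRP2, PDLIM1, PDLIM3, PDLIM5 and PDLIM7 were not called.

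Transcripts linked to mechanical signaling were read from lists chosen with earlier results of these data known. The lists include the regulators themselves, such as SRF and YAP1, and the activity of the pathways was not tested. Myocardin-related transcription factors and SRF, which are switched on when actin polymerizes, control many cytoskeletal genes. Of 15 genes of this pathway, 0 were called (smallest unadjusted P 0.0828 from limma), against 8.51% of all genes tested. ACTA1, skeletal actin, which is known to be re-expressed in loaded hearts, was at 1994 ± 248 FPKM in sham and 1855 ± 480.0 FPKM in DAC minipigs (mean ± SD, n = 3 each), and cytoplasmic ACTG1 had a log2 fold change of 0.027. YAP and TEAD form the other main stretch pathway, with ANKRD1 among its known targets. Of its 12 genes, 1 was called higher and 0 lower, against 3.25% and 5.27% of all genes tested. AXL, a receptor kinase, had a log2 fold change of 0.34 (unadjusted P = 0.0377, adjusted P = 0.582 from limma) and was not called in 6 of the alternatives, 5 of which left out a minipig.

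Of 8 genes listed as marks of hypertrophy and wall stress, NPPA, MYH6 and GDF15 were not found by name. Of the 5 tested, 2 were called higher, against 3.25% of all genes tested. MYH7 (log2 fold change -0.041), ACTA1 (-0.13) and MYOCD (0.19) were not called, and ACTA1 and MYOCD are also in the SRF list above. The identifier of MYH7 is also named MYH6, so reads of MYH6 may be part of the MYH7 value. NPPB, brain natriuretic peptide, was at 15.5, 43.9 and 43.4 FPKM in the sham minipigs and at 80.6, 93.3 and 107 FPKM in the DAC minipigs. Its log2 fold change was 1.55 (standard error 0.38, unadjusted P = 0.00439, adjusted P = 0.482 from limma), and it was 1.07 without sham replicate 1. The table's NPPB position, on chromosome 6, also covers that of the RefSeq gene NPPA, so reads of NPPA may be part of the value. RCAN1, whose short form is induced by calcineurin, was at 13.7, 14.4 and 11.6 FPKM in the sham minipigs and at 58.8, 18.9 and 45.0 FPKM in the DAC minipigs. For RCAN1 the difference was 1.42 on the log2 scale (standard error 0.38, unadjusted P = 0.00655, adjusted P = 0.488 from limma). Leaving out DAC replicate 4 gave 1.09, and leaving out DAC replicate 5 gave 1.89. Both genes were called under every alternative tried.

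The tissue label was checked against marker lists. Of 16 cardiomyocyte markers, 14 were in the table, and their summed FPKM was between 17913 and 18794 in the sham group and between 17141 and 20072 in the DAC group. PLN and MB were not found by name, so a missing name does not show that a gene was not expressed. RYR2, the calcium release channel, was the 1 marker called, lower in the DAC group. Its log2 fold change was -0.41 (unadjusted P = 0.0464, adjusted P = 0.585 from limma), and the groups overlapped. Beside all marker lists, 3.25% of all genes tested were called higher and 5.27% lower. Of 15 skeletal muscle markers, 4 were in the table, and those not listed included the fast myosins MYH1, MYH2 and MYH4. The skeletal markers summed to between 17.0 and 26.5 FPKM in the sham group and between 22.9 and 61.4 FPKM in the DAC group, mostly TNNT1 and CASQ1. Of the 2 skeletal markers tested, TNNT1, slow skeletal troponin T, was called higher (log2 fold change 1.23, unadjusted P = 0.0297, adjusted P = 0.557 from limma), with overlapping groups, and CASQ1 was not called. Of 8 atrial markers, 3 were in the table, at sums of 6.46 to 8.38 FPKM in the sham group and 7.62 to 34.3 FPKM in the DAC group. The highest sum was that of DAC replicate 6, and 0 of the 3 were called. In DAC replicates 4, 5 and 6, MYL4 was at 9.22, 0.780 and 17.6 FPKM and SLN at 1.44, 0.932 and 9.83 FPKM. All 8 fibroblast markers were tested, 5 were called higher, and their sum was 528 to 614 FPKM in the sham group and 744 to 843 FPKM in the DAC group. The part of these other cells in the levels of the 9 genes was not tested. Among the lists for other cells, 1 of 8 smooth muscle markers was called higher, and 2 of 8 endothelial markers were called higher and 2 lower. The smooth muscle list also holds DES (939 FPKM), which is counted above among the Z-disc genes. Of the markers tested, 0 of 6 leukocyte, 0 of 1 red blood cell and 0 of 1 adipocyte markers were called.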

How the data were processed

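RNA of 6 ventricular samples was made into libraries with NEBNext Ultra chemistry, and Illumina HiSeq paired reads were taken. The authors deposited one table of FPKM with a column for each minipig. The submitters' processing notes name HISAT2 and susScr11, and the program that made the FPKM values, its annotation and its handling of shared reads are not given in the sources used here. Every gene of the table reaches 0.5 FPKM in its highest sample. A sample's FPKM values added up to between 281377 and 308771. Depth is unknown: between any 2 samples, at most 6 of at least 3814 low genes shared a ratio, so no steps of whole reads were seen, and precision rests on the spread between minipigs.

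Rows were taken by gene name. Positions are those of the table, and those of the 8 measured genes with a RefSeq record overlap it on Sscrofa11.1. The positions of ANKRD1, ANKRD2, FHL2 and LDB3 overlap those of other listed genes, each at no more than 5.26 FPKM. For other lists, 519 unnamed genes took a symbol from a table of identifiers. The entry named MYH7 carries an identifier that this table names MYH6, so reads of MYH6 may be part of the MYH7 value. Genes that reached 1 FPKM in 3 or more of 6 samples were compared by limma 3.58.1 in R 4.3.3 on log2(FPKM + 1), two-sided, with a variance trend and Benjamini-Hochberg adjustment over all 11029 genes. The steps were tested on simulated data. Figures used matplotlib 3.10.9 in Python 3.11.15. With 3 minipigs against 3, an exact permutation P cannot be under 0.10. Within-sample ratios, sums and counts over lists have no test.

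The members and lists were chosen with earlier results of these data known. The genes named are all members, the called genes of each list (otherwise the 2 most abundant) and the 5 most abundant Z-disc genes. The Z-disc gene called lower is not reported here by name. Genes named outside this rule are given as such, as markers or as the uncalled rest of a list. As alternatives, the filter was dropped or raised to 5 FPKM, and the other settings were a pseudocount of 0.1, median scaling, quantile normalization, mitochondrial genes left out, centring on cardiomyocyte markers, the variance of each gene on its own, sample weights and each sample left out.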

Additional observations from a re-analysis of the deposited data

How the results depend on the processing

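No measured gene was called in all 6 samples or under the 9 alternatives that kept every minipig. With 1 minipig left out, between 0 and 1 of them were called higher and between 0 and 2 lower, beside 5.44% to 9.33% of all genes called in either direction. The groups then did not overlap in 0 to 4 of them, beside 21.9% to 28.8% of all genes, and in 1 after median scaling or with centring on cardiomyocyte markers, beside 14.4% and 14.6%. Their median log2 fold change was between -0.084 and -0.00015 with 1 minipig left out and between -0.073 and 0.033 otherwise. The sign turned with quantile normalization for ANKRD1 (0.033), ANKRD2 (-0.014), FHL2 (0.014) and MYOZ2 (0.034), and with sample weights for ANKRD2 (-0.030). With 1 minipig left out, the log2 fold change was between -0.26 and 0.10 for ANKRD1, -0.15 and 0.20 for ANKRD2, -0.099 and 0.72 for XIRP2, -0.0073 and 0.21 for FHL1, -0.33 and 0.045 for FHL2, and -0.15 and 0.11 for MYOZ2. The cause of these turns was not tested. Of the other Z-disc genes, 1 was called higher with median scaling, quantile normalization, mitochondrial genes left out, centring on cardiomyocyte markers or the variance of each gene on its own, and 0 to 2 with a minipig left out. Between 0 and 2 were then called lower, and 0 with quantile normalization or the variance of each gene on its own. Over all genes, 358 were called higher and 581 lower. These became 165 and 414 with a minimum of 5 FPKM, where fewer genes were tested, 502 and 408 with mitochondrial genes left out, 487 and 406 with centring on cardiomyocyte markers, 438 and 474 with median scaling, and 241 to 470 and 359 to 674 with 1 minipig left out, with 359 lower without sham replicate 1 and 387 lower without sham replicate 3. No paired analysis was possible because the groups share no replicate number. The depth is unknown, so no counting error limits are given, and precision rests on 3 minipigs a group.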
